A study of Rattus norvegicus with 3 samples.

Results

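The genes described here encode 10 components of insulin and insulin-like growth factor (IGF) signalling, found by gene symbol among 16629 genes and unnamed regions measured in the rat pineal gland and in a pool of other tissues. They comprise the ligand genes Igf1 and Igf2, the receptor genes Insr, Igf1r and Igf2r, the adaptor genes Irs1, Irs2 and Irs3, and Pik3r1 and Akt2 of the kinase cascade inside the cell. All 10 were present, 8 as a single entry, Igf1 as 4 entries and Igf2 as 3, which were summed. They were chosen by name, selected on earlier results that included their day, night and mixed-tissue FPKM in these same libraries, so their levels are a description.

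All animals were adult Sprague-Dawley rats housed with 14 h of light daily, followed by 10 h of darkness. Pineal RNA was collected at midday (zeitgeber time 7, hours after lights on) and at midnight (zeitgeber time 19), without any other treatment named in the labels. The comparison library, also from midday, combined equal amounts of RNA from 15 tissues: adrenal gland, pituitary and retina, with spinal cord, hindbrain, midbrain, hypothalamus, cortex and cerebellum, and lung, liver, heart, kidney, small intestine and skeletal muscle. Pancreas and adipose tissue are not among them. Each group had 1 poly(A) RNA library, so no difference below has a replicate check and no p-value was computed. How many animals went into a library is not stated.

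Insulin, IGF1 and IGF2 act through a pair of related receptor tyrosine kinases, the insulin receptor and the IGF1 receptor. The activated receptors phosphorylate adaptor proteins of the insulin receptor substrate (IRS) family, which recruit phosphoinositide 3-kinase (PI3K) through its regulatory subunits, and the lipid product of PI3K leads to activation of the kinase Akt. The pineal gland is best known for the nocturnal synthesis of melatonin under noradrenergic, cAMP-linked control, and insulin and melatonin are known to influence each other in whole animals.

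Levels are given in FPKM, the number of sequenced fragments corrected for transcript length and for the total mapped in a library, which allows levels of different genes to be set side by side. Ratios are log2 ratios of FPKM + 1, a scale that shrinks the ratios of weakly expressed genes, and folds are plain ratios of FPKM. A gene was compared where it reached 1 FPKM in at least 1 of the 2 libraries concerned, and it was called at 2-fold or more between night and day and at 4-fold or more against the mixed tissues, both on the FPKM + 1 scale. Depth was estimated from olfactory receptor genes at 8.75 (day), 5.29 (night) and 9.49 (mixed tissues) fragments per kb at 1 FPKM, the night value resting on 4 models. Transcript lengths are not in the files, so the bounds in brackets are exact 95% Poisson bounds for a transcript of 1 kb. They narrow for longer transcripts and cover counting error only. The labelled tissue matched its markers: 6 pinealocyte genes had summed FPKM of 6641 by day, 7914 by night and 307 in the mixed tissues, which hold retina, and of 3 liver markers found, Alb and Fgb were listed at 0 in both pineal libraries while Serpina1 was at 6.41 FPKM by day and 2.52 by night.

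Between night and day, an adaptor gene and a receptor gene held the largest differences among the members. Coordinates of genes are those of the deposited table, on rn4. Irs2 (chr16:83379987-83404220) was at 2.30 FPKM in the day gland (1.40 to 3.54), 130 FPKM in the night gland (120 to 140) and 8.83 FPKM in the mixed tissues (7.04 to 10.9). It was thus low in the gland by day, below the mixed tissues, and above both other libraries by night. The night level was 56.5-fold the day level (36.4 to 93.0) and the log2 ratio of 5.31 was the sixth highest, rank 6 of 9826 genes compared. Irs2 encodes an adaptor that links insulin and IGF1 receptors to PI3K, and its transcription in liver is known to follow the feeding state.

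Igf1r (chr1:122704974-122990002), the receptor for IGF1, was the other member past 2-fold. It was at 5.26 FPKM by day (3.85 to 7.02), 35.7 by night (30.8 to 41.2) and 4.73 in the mixed tissues (3.45 to 6.33). The day gland and the mixed tissues had overlapping bounds, and the night gland stood apart from both. The night level was 6.79-fold the day level (4.90 to 9.58), with a log2 ratio of 2.55 and rank 68 of 9826.

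Of the 9 members compared between night and day, Irs2 and Igf1r (2 genes) passed 2-fold on the night side, 0 on the day side, and 7 stayed within it. The background was 4.18% of all genes compared on the night side and 2.11% on the day side. The members' median log2 ratio was -0.25, and that of all genes was -0.11. With 1 library at each time, time of day and differences between the libraries cannot be told apart. In whole-gland RNA, more cells of a type and more RNA per cell cannot be told apart either.

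**Figure D1:**
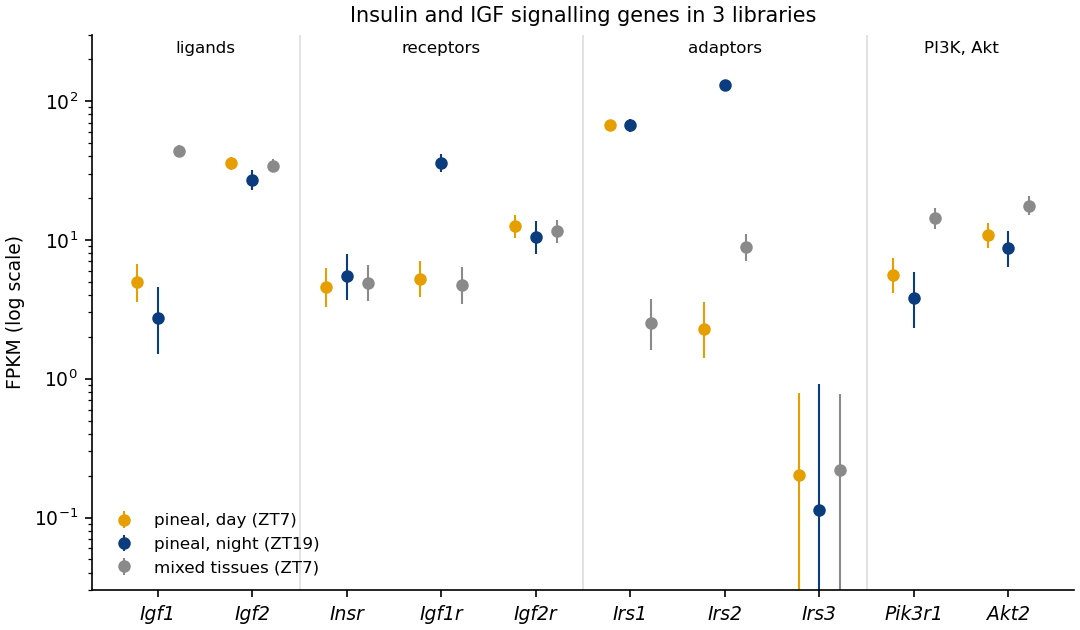
FPKM of the 10 genes (log axis) in the pineal day, pineal night and mixed-tissue libraries, 1 point per library, with exact 95% Poisson bounds for a 1 kb transcript as bars (lower bars of Irs3 run past the axis). Irs2 at 130 FPKM and Igf1r at 35.7 FPKM stand out by night, and Irs1 at 66.8 and 67.0 FPKM is far above the mixed tissues at both times.

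Irs1 (chr9:81585251-81638071), the founding member of the adaptor family, was at similar levels by day and night and above the mixed tissues at both times. It was at 66.8 FPKM by day (61.5 to 72.4), 67.0 by night (60.2 to 74.3) and 2.51 in the mixed tissues (1.60 to 3.74). The day and night values overlapped, and the night over day fold had bounds of 0.877 to 1.15. Against the mixed tissues the day gland was 26.6-fold higher (17.7 to 42.0) and the night gland 26.7-fold higher (17.6 to 42.3), and the log2 ratio of 4.27 by day was rank 32 of 11934.

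Irs3 (chr12:19709141-19711279), an adaptor described in rodent fat, was close to the detection limit everywhere, at 0.202 FPKM by day, 0.114 by night and 0.222 in the mixed tissues. Its whole genomic span is 2.14 kb, so these values stand for at most 3.78, 1.29 and 4.50 fragments. It fell below the 1 FPKM limit in all 3 libraries and was not compared. A difference between libraries was not detectable for this gene at this depth.

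Within the adaptor family the leading member therefore differed between libraries. Summed over Irs1, Irs2 and Irs3 the FPKM was 69.3 by day, 197 by night and 11.6 in the mixed tissues. Irs1 made up 96.4% of the sum by day and 34.0% by night, and Irs2 3.32% and 65.9%. In the mixed tissues Irs2 made up 76.4%. The Irs1 level was 29.1-fold that of Irs2 in the day gland, and the Irs2 level was 1.94-fold that of Irs1 in the night gland and 3.52-fold in the mixed tissues.

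**Figure D2:**
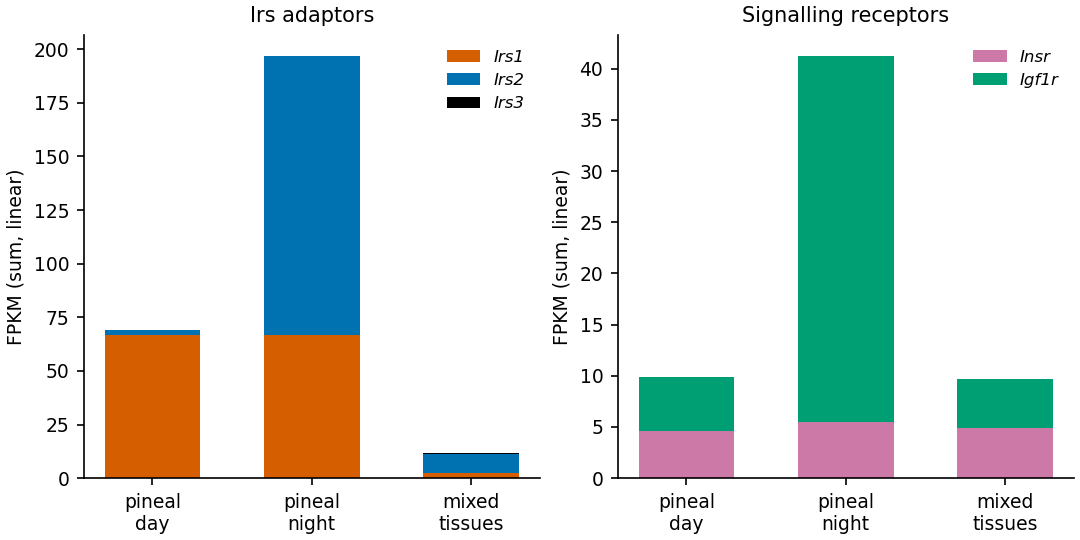
Stacked FPKM (linear axes from 0) of the 3 Irs adaptor genes, left, and of the insulin and IGF1 receptor genes, right, in each library. By night Irs2 adds 130 FPKM to an Irs1 level of 67.0 FPKM, against 66.8 by day, and Igf1r makes up 86.6% of the receptor sum.

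Insr (chr12:2934967-3087691), the insulin receptor and closest relative of Igf1r, did not share the night level of Igf1r. It was at 4.58 FPKM by day (3.27 to 6.23), 5.54 by night (3.71 to 7.94) and 4.92 in the mixed tissues (3.61 to 6.54), and all 3 bounds overlapped. Its night over day fold was 1.21 (0.725 to 2.00), and its log2 ratio 0.23. By day Igf1r and Insr were at similar levels, with an Igf1r to Insr ratio of 1.15, against 0.963 in the mixed tissues and 6.45 by night. The sum of both receptors was 9.84 FPKM by day, 41.3 by night and 9.65 in the mixed tissues.

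Igf2r (chr1:42253273-42341646), also known as the cation-independent mannose 6-phosphate receptor, binds IGF2 and delivers it and lysosomal enzymes to lysosomes rather than signalling through IRS adaptors. It was at 12.6 FPKM by day (10.4 to 15.2), 10.4 by night (7.87 to 13.6) and 11.5 in the mixed tissues (9.46 to 13.9). The bounds of all 3 libraries overlapped, and the night over day log2 ratio was -0.25 (fold 0.827, 0.588 to 1.15).

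Upstream sequences of the receptor genes are shown because Igf1r differed between night and day while Insr and Igf2r lay within 2-fold. The RefSeq promoter table of build GRCr8 held 10 promoters of 9 members, 2 of them of Igf2. Irs2 had no entry. The 250 bases before each start were searched on both strands for TGACGTCA, the cAMP response element, for its core TGACG, which TGACGTCA contains, for TGTTTAC, a FoxO-type element, and for CACGTG, the E-box bound by clock factors. Matches are in capitals, and a match is a description of letters, not a bound site. Igf1r held a CACGTG that begins 31 bases before the start, shown in a 30-base window at chr1:130959954-130959983 on the plus strand. Insr held TGACG at 113 bases and TGTTTAC at 100 bases before the start, shown in a 30-base window at chr12:6128890-6128919 on the minus strand. Igf2r held CACGTG at 125 and 85 bases and TGACG at 128 and 81 bases before the start, so that the motifs overlap in both places, and its 250 bases at chr1:50526628-50526877 on the plus strand are shown whole.
Igf1r: tgtgcgcgcgggCACGTGtgcgcggccccg
Insr: agcTGACGggccgcgtTGTTTACtggccgg
Igf2r: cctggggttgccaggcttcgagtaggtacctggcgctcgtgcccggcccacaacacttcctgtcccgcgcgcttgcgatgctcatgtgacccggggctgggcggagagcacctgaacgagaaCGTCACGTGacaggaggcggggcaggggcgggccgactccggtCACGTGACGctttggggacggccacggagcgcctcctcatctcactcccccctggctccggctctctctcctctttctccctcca
The shortest motif, TGACG, occurred in 18.2% of all 33469 promoters of the same length, CACGTG in 5.59%, TGTTTAC in 3.21% and the full TGACGTCA in 1.59%. CACGTG was present in Igf1r and in Igf2r, whose night over day log2 ratios were 2.55 and -0.25. Any part of the motif in these ratios was not tested. The full TGACGTCA was in 0 of the 9 members' windows.

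Neither ligand gene among the members passed 2-fold between night and day. Igf1 (chr7:24531669-24605742) was at 4.94 FPKM by day (3.58 to 6.65), 2.74 by night (1.51 to 4.56) and 43.8 in the mixed tissues (39.7 to 48.2). The bounds of day and night overlapped (log2 ratio -0.67, within 2-fold), whereas the mixed tissues were 8.86-fold above the day gland (6.47 to 12.4) and 16.0-fold above the night gland (9.51 to 29.2). Liver, a part of the pool, is the main source of circulating IGF1. The 4 Igf1 entries also differed in use: 1 entry held 100% of the gland's FPKM by day and 99.98% by night but 65.1% in the mixed tissues, where another held 25.4% and another 9.32%. Entries that overlap were separated by the authors' estimation, so their shares are less certain than the sum.

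Igf2 (chr1:202906623-202916730), a growth factor that meninges and choroid plexus express in the adult brain, was at 35.6 FPKM by day (31.7 to 39.7), 27.1 by night (22.8 to 31.9) and 34.2 in the mixed tissues (30.6 to 38.2). It was the second most abundant member by day and in the mixed tissues. All 3 levels lay within 2-fold of each other. The night over day log2 ratio was -0.38 (fold 0.761, 0.620 to 0.930), with bounds below 1 that cover counting error only. A single entry held 85.4%, 85.8% and 86.6% of the FPKM. Fibroblast and meningeal markers moved in the same direction: their 8 genes summed to 266 FPKM by day and 189 by night, with 7 lower and 1 higher by night. That direction was common, as only 38.2% of all genes compared had a log2 ratio above 0. Oligodendrocyte markers (4 lower, 0 higher), mural and astrocyte markers (each 3 lower, 0 higher) and microglia markers (3 lower, 1 higher) shared it. Endothelial markers had 2 lower and 1 higher. Pinealocyte markers had 2 lower and 4 higher, the latter including Aanat, at 5.34 FPKM by day and 762 by night. Of the 4 choroid plexus markers, 3 were lower by night (Folr1, Kl and Aqp1, the last at 18.4 and 10.8 FPKM) and 1 higher (Ttr, at 516 and 607), and Ttr made up most of their sum of 538 by day and 621 by night. The part of these cells in the Igf1 and Igf2 values was not tested.

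Pik3r1 (chr2:32602673-32675350) encodes the p85-alpha regulatory subunit that docks PI3K to IRS proteins. It was at 5.62 FPKM by day (4.16 to 7.43), 3.81 by night (2.33 to 5.87) and 14.3 in the mixed tissues (12.0 to 17.0). The pineal values overlapped, and both were below the mixed tissues, by 2.55-fold by day and 3.76-fold by night, short of the 4-fold limit. Akt2 (chr1:82686233-82726544), the Akt kinase most tied to insulin action on glucose, was at 10.9 FPKM by day (8.79 to 13.3), 8.75 by night (6.41 to 11.7) and 17.6 in the mixed tissues (15.1 to 20.5). It too lay within 2-fold between night and day (log2 -0.28) and within 4-fold of the mixed tissues.

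**Figure D3:**
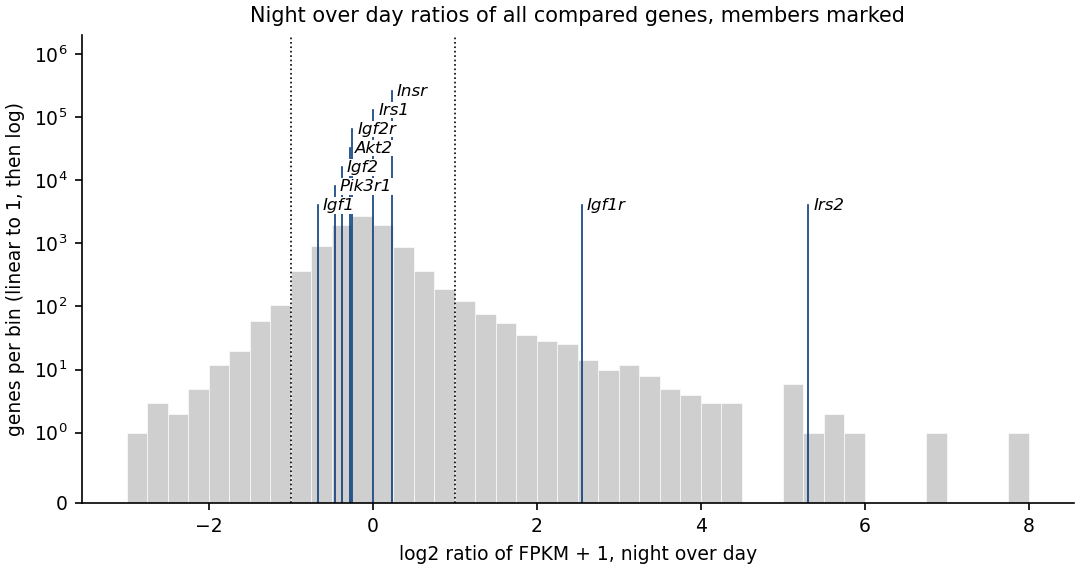
Distribution of the night over day log2 ratio of FPKM + 1 over 9826 genes and regions (grey bars, counts on an axis that is linear to 1 and logarithmic above), with the 9 members compared as lines and 2-fold marked by dotted lines. Line heights only separate the labels. Irs2 at 5.31 and Igf1r at 2.55 lie in the right tail and the other 7 lie between -0.67 and 0.23.

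Against the mixed tissues, 1 of 9 members was at least 4-fold higher in the day gland (Irs1) and 1 lower (Igf1), with 7 within 4-fold. The background among all genes was 2.29% higher and 13.2% lower in the day gland by that measure. In the night gland 3 were higher (Irs1, Irs2 and Igf1r) and 1 lower (Igf1), against 3.09% and 14.4% of all genes. Over all genes the night split was 369 higher and 1725 lower, or 548 and 1286 with the libraries centred. Irs2 was 14.7-fold above the mixed tissues by night (11.7 to 18.7) and 3.85-fold below them by day (2.34 to 6.61). Igf1r was 7.55-fold above them by night (5.43 to 10.7) and 1.11-fold by day (0.721 to 1.72). The comparisons share libraries, so they are not independent, and the night comparison differs in both tissue and time.

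The order of the members' levels changed accordingly. By day Irs1 was highest, followed by Igf2, Igf2r and Akt2, whose bounds overlap with those of Igf2r. Pik3r1, Igf1r, Igf1 and Insr then lay between 5.62 and 4.58 FPKM with overlapping bounds, followed by Irs2, whose upper bound is above the lower bound of Insr, and Irs3. By night Irs2 came first, then Irs1, then Igf1r and Igf2, whose bounds overlap. Igf2r and Akt2 followed with overlapping bounds, then Insr, Pik3r1 and Igf1, whose bounds also overlap, and Irs3. In the mixed tissues Igf1 led and Irs1 was ninth of the 10, above Irs3.

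The genes nearest to Irs2 in log2(FPKM + 1) over the 3 libraries included Dclk3, a doublecortin-like kinase, Sik1, a salt-inducible kinase, the orphan nuclear receptor Nr4a1, and Irak2, a kinase of interleukin receptor signalling. Dclk3 was at 2.56 FPKM by day, 133 by night and 2.86 in the mixed tissues, a distance of 1.36 log2 units from Irs2. Sik1 was at 1.72, 97.8 and 2.86 FPKM (distance 1.44). Nr4a1 and Irak2 had night over day log2 ratios of 4.01 and 3.32. These 4 thus shared a low day and a high night level with Irs2, which is what the measure selects.

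The wider pathway was read from a list of 84 genes in 10 roles, the members included, of which 77 were in the table. Between night and day 69 could be compared. With FPKM + 1 as the scale, 5 passed 2-fold on the night side, 0 on the day side, and 64 did not pass it. The list median was -0.14 on the log2 scale. Without the members, 3 of 60 were higher and 0 lower, next to the 4.18% and 2.11% of all genes given above.

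Those described here have different roles. Socs3, which restrains receptor and cytokine signalling, was at 0.496 FPKM by day, 3.35 by night and 2.02 in the mixed tissues (log2 1.54), low values in each library. Its span is 0.863 kb, so these values stand for at most 3.75, 15.3 and 16.5 fragments. Eif4ebp1, a translation repressor inactivated by mTOR, was at 2.42, 6.62 and 7.21 FPKM (log2 1.15), so its night level was near that of the mixed tissues.

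Downstream of the receptors most genes lay within 2-fold between night and day, as did most genes of any kind. Of all genes compared, 4.18% passed it on the night side and 2.11% on the day side, a background for each role below. All 10 PI3K subunits and lipid phosphatases were within 2-fold on the FPKM + 1 scale (median log2 -0.29). On plain FPKM, Pik3cd was 2.31-fold lower by night, at 3.10 by day and 1.34 by night. Pik3r3, another PI3K regulatory subunit, was at 106 FPKM by day, 80.2 by night and 17.4 in the mixed tissues. On the FPKM + 1 scale it was the 1 gene of the list outside the members called 4-fold above the mixed tissues, at plain folds of 6.10 by day and 4.60 by night, and in the gland it was far above Pik3r1.

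The 11 genes of Akt and its regulators that were measured were also within 2-fold on the FPKM + 1 scale (median log2 -0.09). Akt1 had day and night levels of 27.2 and 25.5 FPKM. Trib3, at 1.59 FPKM by day and 3.37 by night, was 2.13-fold higher by night on plain FPKM. Among 10 Akt and mTOR targets, 9 lay within 2-fold, including the glycogen synthase kinases Gsk3a (41.5 and 37.5 FPKM) and Gsk3b (20.9 and 21.0). In the Ras and ERK branch, so did Map2k2 (44.5 and 50.2 FPKM) and Map2k1 (27.7 and 33.0). The other adaptors compared, 5 genes outside the members, lay within 2-fold: Grb2, which links receptors to Ras, was at 33.5 FPKM by day and 27.7 by night. Brakes on the receptors had 1 of 8 past 2-fold, Socs3, with Grb10 at 24.9 and 17.2 FPKM and the phosphatase gene Ptpn1 at 12.3 and 10.8.

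IGF binding proteins in the strict sense carry IGFs outside cells and set how much reaches the receptor. The genes of this role were listed by name, with Igfals added, and RNA levels do not measure IGF binding. Of 8, 6 could be compared between night and day and all 6 were within 2-fold, as were most genes of any kind. Their median log2 ratio was -0.41, and that of all genes was -0.11. Igfbp7 was the most abundant gene of the whole list, at 283 FPKM by day, 232 by night and 143 in the mixed tissues. Igfbp5 was at 54.7, 34.4 and 33.0 FPKM. Glucose transporter genes differed in level: Slc2a1, the basal glucose transporter GLUT1, was at 37.5 FPKM by day, 43.2 by night and 25.8 in the mixed tissues. Slc2a4, the insulin-responsive transporter GLUT4, was at 0.254 and 0.219 against 11.9 in the mixed tissues. Slc2a3, another glucose transporter gene, was likewise low in the gland, at 0.250 and 0.0930 against 12.2. Lnpep, a peptidase that travels with GLUT4 vesicles, was at 11.0 and 8.50 FPKM.

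As called on the FPKM + 1 scale, 5 listed genes were at least 4-fold below the mixed tissues by day. They were Igf1, Slc2a4, Slc2a3 (a neuronal glucose transporter, 0.250 and 12.2 FPKM), Ptprf (a receptor phosphatase, 1.48 and 21.3) and Igfals (which stabilises circulating IGF, 0.185 and 4.46). By night Igfbp4 joined them, at 11.1 and 50.9 FPKM. Plain FPKM ratios put further listed genes past 4-fold, among them Igfbp1 (0.0599 by day and 2.84 in the mixed tissues) and Grb14 (1.27 and 7.10). These genes were named after their values were seen. The day share on the FPKM + 1 scale, 5 of 73, is below the 13.2% of all genes.

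**Figure D4:**
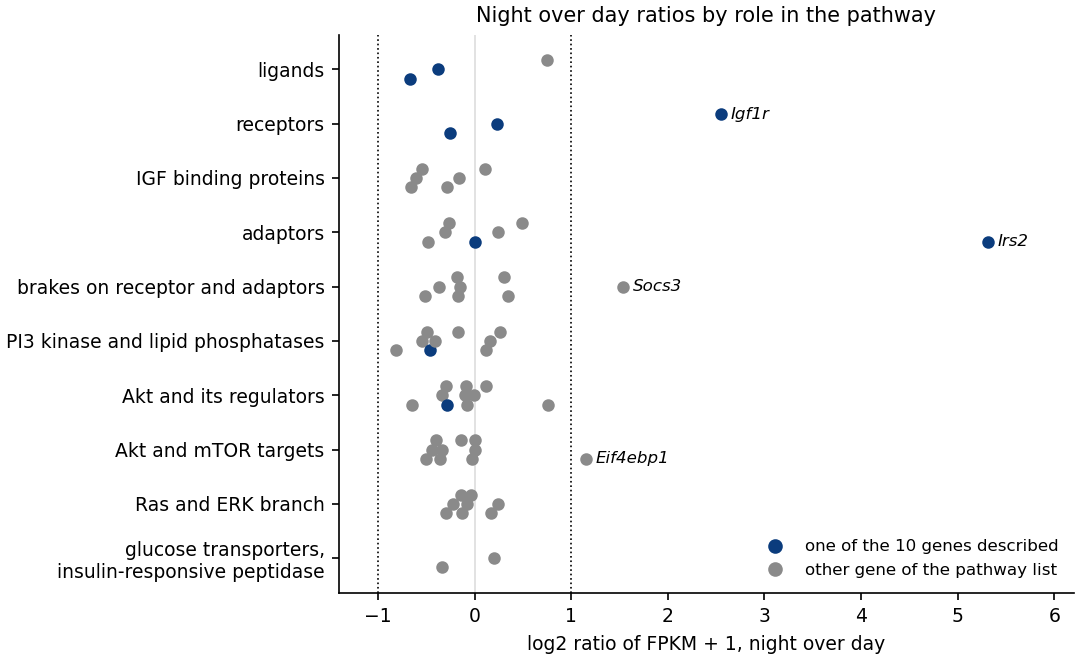
Night over day log2 ratio of FPKM + 1 for 66 genes of the pathway list, 1 point per gene, by role (points are shifted up or down only to separate them, and dotted lines mark 2-fold). The labelled genes past 2-fold, Irs2, Igf1r, Socs3 and Eif4ebp1, are in different roles and all lie on the night side.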

How the data were processed

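The values are FPKM as deposited by the authors, the unit given per the file headers. They were made with TopHat 1.3.1 and Cufflinks 1.2.0 on build rn4, per the submitters' processing notes; options and the treatment of multiply mapping reads are not given in the sources consulted. Per the labels' protocols, 10 µg of total RNA was poly(A)-selected, randomly primed, amplified for 15 cycles and sequenced as paired 51-base reads. The series table and the sample files were identical in 51267 of 51267 values.

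Deposited starts count from 0 and are given counted from 1. Entries of 1 symbol were summed. Members and lists were chosen with earlier results of these data known. The 10 members were named, with listed genes at least 2-fold apart between night and day, the 2 most abundant others of each role, and the 5 genes nearest to Irs2 by Euclidean distance. Marker lists (11) were summed per library: those not given above were, in FPKM by day, by night and in the mixed tissues, endothelial (15.3, 13.6 and 54.5), mural (40.1, 35.2 and 54.9), astrocyte (24.2, 13.8 and 321), oligodendrocyte (29.9, 15.9 and 4529), microglia (28.5, 23.2 and 40.9), liver (6.41, 2.52 and 2443), skeletal muscle (0.792, 1.19 and 3636) and adipocyte (0, 0.191 and 7.08).

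One fragment was valued from 1192 olfactory receptor models of 800 to 1100 bp, of which 20, 4 and 17 stood at 1 fragment in the day, night and mixed libraries. A floor of 3 fragments on 1 kb is 0.343, 0.567 and 0.316 FPKM. Poisson bounds of ratios are conditional binomial bounds. Python 3.11.15, pandas 2.3.3 and scipy 1.17.1 were used. The planned comparison of Irs proteins was not run, and some genes that the naming rule takes are not reported here. Alternatives were 2 other pseudocounts, 2 other filters, centred libraries and the highest entry of each symbol.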

Additional observations from a re-analysis of the deposited data

How the results depend on the processing

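Under 6 alternatives, the members called in each comparison were as many as in the values above: 2 higher by night than by day, 1 higher and 1 lower in the day gland and 3 higher and 1 lower in the night gland against the mixed tissues. The Irs2 night over day log2 ratio ranged from 4.21 to 5.76, that of Igf1r from 1.99 to 2.74 and the Irs1 day over mixed ratio from 3.26 to 4.68, the lowest of each with a pseudocount of 5. Centring moved the median of all genes by 0.11 (night over day), 0.27 (day over mixed) and 0.36 (night over mixed), as main medians of -0.11, -0.27 and -0.36 became 0.

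In the wider list, a pseudocount of 0.1 gave 7 genes higher by night than by day (5 above) and 1 lower (0 above). It gave 8 lower in the day gland than in the mixed tissues (5 above) and 11 lower in the night gland (6 above). A pseudocount of 5 gave 3 higher by night than by day (5 above), and 2 and 2 lower than the mixed tissues. The list genes higher than the mixed tissues by night, 4 above, were 5 with a pseudocount of 0.1 or centred libraries and 3 with a pseudocount of 5. By day, 2 above, they were 3 with a pseudocount of 0.1. The counts that differ by pseudocount reflect its weight on low values. Over all genes, night over day calls were 533 higher and 518 lower with a pseudocount of 0.1, and 231 and 64 with 5, against 411 and 207. No paired analysis was possible because each group holds 1 library. The night library has an estimated 60.5% of the day library's depth, which widens the bounds of members near 3 to 5 FPKM.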

Other observations

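The table also lists transcribed regions without gene names, 157 in all, and 2 of the 10 members have one within 100 kb, against 2.20% of 16472 named genes. Both were chosen after their values were seen. The region PFAR226 (chr9:81486300-81536900, rn4) lies 48.4 kb from the Irs1 span (chr9:81585251-81638071) and was at 5.12 FPKM by day, 4.50 by night and 0.0330 in the mixed tissues. PFAR153 (chr16:83477300-83511300) lies 73.1 kb from the Irs2 span (chr16:83379987-83404220) and was at 0.00743, 0.399 and 0.00982 FPKM. Its levels are low. Like their neighbours, the first was above the mixed tissues at both times and the second was higher by night. With regions chosen on these values, the likeness is a description only. Whether region and gene belong to 1 transcript was not tested.

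H19, the imprinted noncoding RNA gene next to Igf2 (chr1:202822925-202825601, 81.0 kb from the Igf2 span chr1:202906623-202916730), differed from Igf2. It was at 1.29 FPKM by day, 0.719 by night and 257 in the mixed tissues, while Igf2 was at 35.6, 27.1 and 34.2 FPKM. The mixed tissues were 199-fold above the day gland for H19.

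Ins1, a rodent insulin gene, was listed at 1.10 FPKM by day, 2.51 by night and 0 in the mixed tissues, a pool without pancreas. Its span is 0.566 kb, so the pineal values stand for at most 5.43 and 7.53 fragments. Ins2, the other insulin gene, was listed at 0 in all 3 libraries. Insrr, a receptor related to the insulin receptor, stayed at or below 0.569 FPKM in the 3 libraries.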
